A study of Mus musculus with 18 samples.

Results

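The 10 genes described here encode sensors of nucleic acid in the cytosol and the proteins that relay, limit or clear their ligands. They were chosen by name, as the rows of the deposited table with the symbols Ddx58, Ifih1, Dhx58, Mavs, Tmem173, Tbk1, Zbp1, Adar, Trex1 and Samhd1, and all 10 were found among its 25926 genes. RNA was measured in BMDMs, macrophages that were grown from C57BL/6J bone marrow with M-CSF at 50 ng/mL for 7 days. They shared a Transwell with TECs, the tubular epithelial cells of wild-type mouse kidney, which lay beneath a membrane whose pore size was 0.4 μm. In NC, no crystals were given to the TECs and PBS was given to the BMDMs. COM stands for calcium oxalate monohydrate, and in the COM group crystals of it were given to the TECs at 100 μg/mL for 24 h while PBS was given to the BMDMs. In COM+Met, the TECs were exposed in the same way and the BMDMs received 5 mM Met for 24 h, an abbreviation that the labels do not spell out. Each group had 6 samples, and the labels do not say whether these came from separate mice or cultures, so each p-value rests on a spread among samples that may be technical alone.

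Cells carry receptors that read RNA or DNA in the wrong place or form. The RNA helicases RIG-I (Ddx58) and MDA5 (Ifih1) signal through the mitochondrial adaptor MAVS, and cGAS, a DNA sensor, signals through STING (Tmem173). Both adaptors engage the kinase TBK1, which phosphorylates IRF3 and so starts transcription of type I interferon, and in macrophages interferon in turn raises the transcription of many of the sensors themselves.

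Start-site sequences from RefSeq (GRCm38.p6, 250 bases before to 50 bases after a start) covered 7 of the 10 genes, with 10 starts, and 4 are shown: those of the RNA helicases Ddx58 and Ifih1 and of the editing enzyme Adar, which hold the letters of an interferon-response element, and that of the adaptor Mavs, the member whose level differed least between COM and NC. Capitals mark the interferon-response core, searched as GAAANNGAA on both strands, so that a match on the other strand reads as its reverse complement. Each sequence is written 5′ to 3′ on the strand of its gene.
Ddx58, chr4:40239776-40240075, minus strand: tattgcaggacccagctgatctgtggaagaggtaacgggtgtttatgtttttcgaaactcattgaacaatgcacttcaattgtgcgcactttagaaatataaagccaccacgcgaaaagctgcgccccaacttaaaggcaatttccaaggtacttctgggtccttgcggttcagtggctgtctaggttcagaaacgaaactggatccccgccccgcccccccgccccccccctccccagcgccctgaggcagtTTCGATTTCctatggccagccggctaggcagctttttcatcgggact
Ifih1, chr2:62646206-62646505, minus strand: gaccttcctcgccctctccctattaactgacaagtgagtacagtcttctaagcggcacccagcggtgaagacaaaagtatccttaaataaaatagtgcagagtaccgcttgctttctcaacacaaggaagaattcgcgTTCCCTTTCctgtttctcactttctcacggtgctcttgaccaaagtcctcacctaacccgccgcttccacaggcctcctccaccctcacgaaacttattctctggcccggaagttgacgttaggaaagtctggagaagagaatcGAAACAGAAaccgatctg
Adar, chr3:89730468-89730767, plus strand: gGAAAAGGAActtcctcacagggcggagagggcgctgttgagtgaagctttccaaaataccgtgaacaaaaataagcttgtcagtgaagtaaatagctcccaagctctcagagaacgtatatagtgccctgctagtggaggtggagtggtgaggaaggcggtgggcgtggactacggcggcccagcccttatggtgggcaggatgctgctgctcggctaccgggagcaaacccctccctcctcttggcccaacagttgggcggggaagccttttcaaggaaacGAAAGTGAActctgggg
Mavs, chr2:131233813-131234112, plus strand: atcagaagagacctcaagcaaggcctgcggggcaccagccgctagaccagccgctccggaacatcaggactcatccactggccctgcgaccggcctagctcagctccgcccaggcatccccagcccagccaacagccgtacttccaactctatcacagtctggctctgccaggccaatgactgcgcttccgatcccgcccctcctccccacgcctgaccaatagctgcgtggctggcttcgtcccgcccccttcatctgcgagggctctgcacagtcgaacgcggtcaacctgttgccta
The core was present at 1 start each of Ddx58, Ifih1 and Adar. It lay at base 4 after the start in Ddx58, at bases 33 and -112 in Ifih1, and at bases 34 and -249 at the Adar start that lies farthest downstream of its 3. The 7 other starts, those of Mavs, Samhd1, Trex1 and Tbk1 and the other starts of Adar, did not hold these letters. Of all 32851 start-site sequences, 8.56% hold the core. The letters TTCNNNGAA, of a STAT-binding element, stood at Samhd1 and at the same Adar start (8.30% of all sequences). TATAAA stood at Ddx58 (13.6%), and GGGNNTTCC, of an NF-κB element, at none of the 10 (5.82%). A match is a string of letters in this window and was not tested as a binding site.

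Values are FPKM, the mapped fragments scaled to gene length and to the sample's total, and read depth is unknown. The 9 macrophage markers were present in each group, with summed levels of 10603 to 17052 FPKM over the 18 samples. Most of this was Lyz2 (means 11610, 9517 and 12776 FPKM in NC, COM and COM+Met), and single markers moved both ways. Mrc1 was at means of 79.9, 3.26 and 2.62 FPKM and Adgre1 at 112, 577 and 586. The 14 tubular markers summed to 11.0–18.4 FPKM in NC, nearly all of it Cdh1, to 0.468–1.37 in COM and to 0.0575–0.332 in COM+Met, and Krt18 was listed at 0 throughout. The 10 neutrophil markers summed to 535–1017 FPKM in NC, 170–552 in COM and 74.0–137 in COM+Met. The 6 dendritic cell markers summed to 2.51–26.9, 63.9–225 and 38.7–76.2, mostly Ccr7 (means 9.94, 133 and 55.7). Mean Clec9a moved the other way (3.40, 2.37 and 0.764), and the other dendritic cell markers had means of at most 2.49 FPKM. Fibroblast and endothelial markers summed to 18.3–54.1, 2.03–30.1 and 0.314–3.05 FPKM, and lymphocyte markers to at most 1.64. These sums moved with the groups, and their part in the results was not tested. In bulk RNA, fewer cells of a type and less RNA per cell cannot be told apart.

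The 6 COM libraries did not form a single set. COM replicates 1 to 3 correlated with each other at 0.992–0.994 over 10751 genes and replicates 4 and 5 at 0.995, but replicate 6 correlated with replicates 1 to 3 at only 0.888–0.891. Replicate 6 correlated with replicates 4 and 5 at 0.930–0.935, below the 0.948–0.951 of replicates 4 and 5 with replicates 1 to 3. Replicates 4 to 6 are therefore set together below only as the libraries apart from replicates 1 to 3, and not as libraries alike. In COM+Met the range was 0.989–0.995. NC replicates 5 and 6 correlated with NC replicates 1 to 4 at 0.938–0.962. The labels name no batch for these sets, so results are given with and without them.

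**Figure D1:**
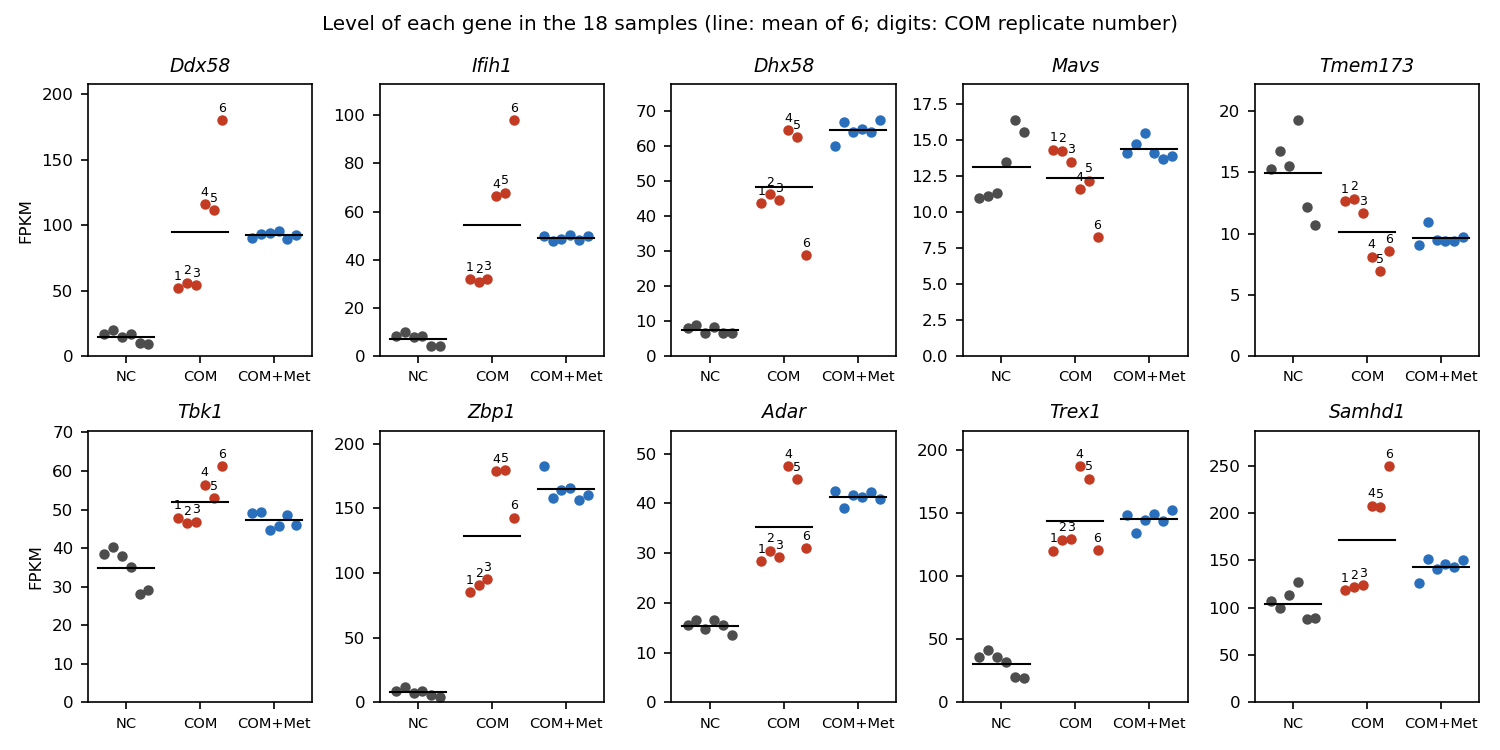
FPKM of each of the 10 genes (vertical axes, each from 0) in the 6 samples of NC, COM and COM+Met. Points are samples, lines are group means and digits are the COM replicate numbers; the COM points lie in separate sets, while COM+Met points lie close together.

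In NC, Samhd1 had the highest level of the 10 genes (104 ± 14.9 FPKM, SD, n = 6), with no overlap with the next, Tbk1 (34.9 ± 5.10), which overlapped Trex1 (30.7 ± 8.93). Below these, neighbours in the order from Adar (15.4 ± 1.18) through Tmem173, Ddx58, Mavs, Zbp1 and Dhx58 to Ifih1 (7.11 ± 2.38) overlapped each other. In COM+Met the order was led by Zbp1 (165 ± 9.41 FPKM), apart from Trex1 (145 ± 6.34), which overlapped Samhd1 (143 ± 9.20), and it ended with Mavs (14.3 ± 0.665) and Tmem173 (9.66 ± 0.654). Zbp1 stood at place 8 in NC, at place 3 in COM and at place 1 in COM+Met. Each neighbour pair in COM overlapped, other than Adar (35.2 ± 8.54 FPKM) and Mavs (12.3 ± 2.29). The coefficient of variation in COM+Met was at most 6.76% for any of the 10 genes, against 11.5% to 53.9% in COM.

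COM was compared with NC to ask what exposure of the TECs to crystals did to the BMDMs across the membrane. Of the 10 genes, which all passed the filter of a mean of 1 FPKM, 8 rose and 1 fell at an adjusted p below 0.05 (limma, Benjamini-Hochberg over 10900 genes), where 12.7% of all genes tested rose and 40.6% fell. At a change of at least 2-fold, 6 rose and 0 fell, against 5.99% and 11.7% of all genes. The samples of COM lay above those of NC without overlap for 7 of the 10, against 8.6% of all genes. The median log2 fold change was 1.67 over the 10 genes and -0.27 over all genes, so that small changes depend on scaling. That of Tmem173 (-0.53) did not pass with size factors or quantile normalisation. Size factors brought the median of all genes to 0.0048, and the split of 2-fold calls over all genes from 653 higher and 1273 lower to 864 and 821.

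The 3 RNA helicases rose together. Ddx58 (chromosome 4, 40203773 to 40239828, minus strand in GENCODE M21 on GRCm38), which binds RNA with a triphosphate end, was at 9.22, 15.7 and 19.8 FPKM (lowest, median, highest) in NC and at 51.7, 83.7 and 180 FPKM in COM. The groups did not overlap, and COM replicates 4 to 6 (111 to 180 FPKM) were above replicates 1 to 3 (51.7 to 55.9). Its log2 fold change was 2.51 (SE 0.32, adjusted p = 3.70e-05, limma), or 5.71-fold on the scale of FPKM + 1, and 1.75 without COM replicates 4 to 6.

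Ifih1 (chromosome 2, 62595798 to 62646255, minus strand), which binds long base-paired RNA, was at 4.10, 7.92 and 9.99 FPKM in NC and at 30.9, 49.3 and 98.1 FPKM in COM. Its samples fell into the same sets as those of Ddx58, with 30.9 to 32.1 FPKM in COM replicates 1 to 3 and 66.4 to 98.1 in replicates 4 to 6, and NC replicates 5 and 6 (4.10 and 4.31 FPKM) were the lowest of NC. It rose by a log2 fold change of 2.69 (SE 0.31, adjusted p = 1.91e-05, limma). Without COM replicates 4 to 6 the value was 1.91.

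Dhx58 (chromosome 11, 100694884 to 100704271, minus strand) encodes LGP2, a relative of RIG-I without its signalling domains that tunes the other helicases. It was at 6.62, 7.39 and 8.78 FPKM in NC and at 28.8, 45.4 and 64.5 FPKM in COM. The groups did not overlap, but the order of the COM libraries differed from that of Ddx58 and Ifih1: replicate 6, the highest for those genes, was the lowest for Dhx58. It rose by a log2 fold change of 2.49 (SE 0.17, adjusted p = 2.78e-07, limma).

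Neither adaptor rose. Mavs (chromosome 2, 131234063 to 131248025, plus strand), the mitochondrial adaptor of RIG-I and MDA5, was at 11.0, 12.4 and 16.4 FPKM in NC and at 8.27, 12.8 and 14.3 FPKM in COM, and the groups overlapped. Its log2 fold change was -0.088 (95% CI -0.40 to 0.23, adjusted p = 0.624, limma), and its sign turned with size factors (0.21), with quantile normalisation (0.16), with sample weights (0.23, adjusted p = 0.0117) and without COM replicates 4 to 6 (0.10), COM replicate 6 (0.014) or NC replicates 5 and 6 (0.052). Tmem173 encodes STING, the adaptor that binds the cyclic dinucleotide made by cGAS. It was at 10.7, 15.4 and 19.3 FPKM in NC and at 6.94, 10.1 and 12.9 FPKM in COM, with NC replicates 5 and 6 (10.7 and 12.2) inside the COM range. It fell by 0.53 on the log2 scale (SE 0.17, adjusted p = 0.0211, limma), which is 0.26 below the median of all genes. The call was lost with size factors (-0.23, adjusted p = 0.188), with quantile normalisation (-0.29, 0.110), without COM replicates 4 to 6 (-0.23, 0.244) and without NC replicate 4 (-0.45, 0.0507).

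Tbk1 (chromosome 10, 121546455 to 121586787, minus strand), the kinase shared by both routes, was at 28.2, 36.5 and 40.4 FPKM in NC and at 46.5, 50.4 and 61.2 FPKM in COM. The groups did not overlap, although the difference was the smallest among the genes that rose, with a log2 fold change of 0.57 (SE 0.12, adjusted p = 0.00149, limma).

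Both genes whose proteins carry a Z-nucleic acid binding domain rose, by unlike amounts. Zbp1 (chromosome 2, 173206612 to 173218923, minus strand), which binds nucleic acid in the left-handed Z form and can start RIPK3-dependent cell death, was at 4.36, 7.89 and 11.8 FPKM in NC and at 85.4, 119 and 180 FPKM in COM. COM replicates 1 to 3 (85.4 to 95.1) lay below replicates 4 to 6 (143 to 180), and each was above every NC sample. Its log2 fold change of 3.88 (SE 0.25, adjusted p = 1.31e-07, limma) ranked 58 among rises of all 10900 genes. Adar (chromosome 3, 89715022 to 89753446, plus strand), which edits adenosine to inosine in base-paired RNA, was at 13.5, 15.6 and 16.6 FPKM in NC and at 28.3, 30.8 and 47.5 FPKM in COM. COM replicates 4 and 5 stood apart from the other 4 COM samples, which lay between 28.3 and 31.1, and no sample overlapped with NC. Adar rose by a log2 fold change of 1.11 (SE 0.14, adjusted p = 3.32e-05, limma).

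Of the genes that limit the ligands, Trex1 (chromosome 9, 109057933 to 109059734, minus strand), the main exonuclease for DNA in the cytosol, was at 19.4, 33.8 and 41.3 FPKM in NC and at 120, 129 and 187 FPKM in COM. NC replicates 5 and 6 (19.4 and 20.3) were its lowest, and COM replicate 6 stood with replicates 1 to 3 rather than with 4 and 5. Its log2 fold change was 2.22 (SE 0.20, adjusted p = 2.56e-06, limma). Samhd1 (chromosome 2, 157097533 to 157135265, minus strand), which hydrolyses deoxynucleotides, was at 87.8, 103 and 127 FPKM in NC and at 119, 165 and 249 FPKM in COM. COM replicates 1 to 3 (119 to 124) lay within the NC range and replicates 4 to 6 (207 to 249) above it. It rose by a log2 fold change of 0.66 (SE 0.20, adjusted p = 0.0147, limma), and without COM replicates 4 to 6 the value was 0.23 (adjusted p = 0.108), with sample weights 0.20 (0.0559) and without NC replicates 5 and 6 0.55 (0.0767).

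**Figure D2:**
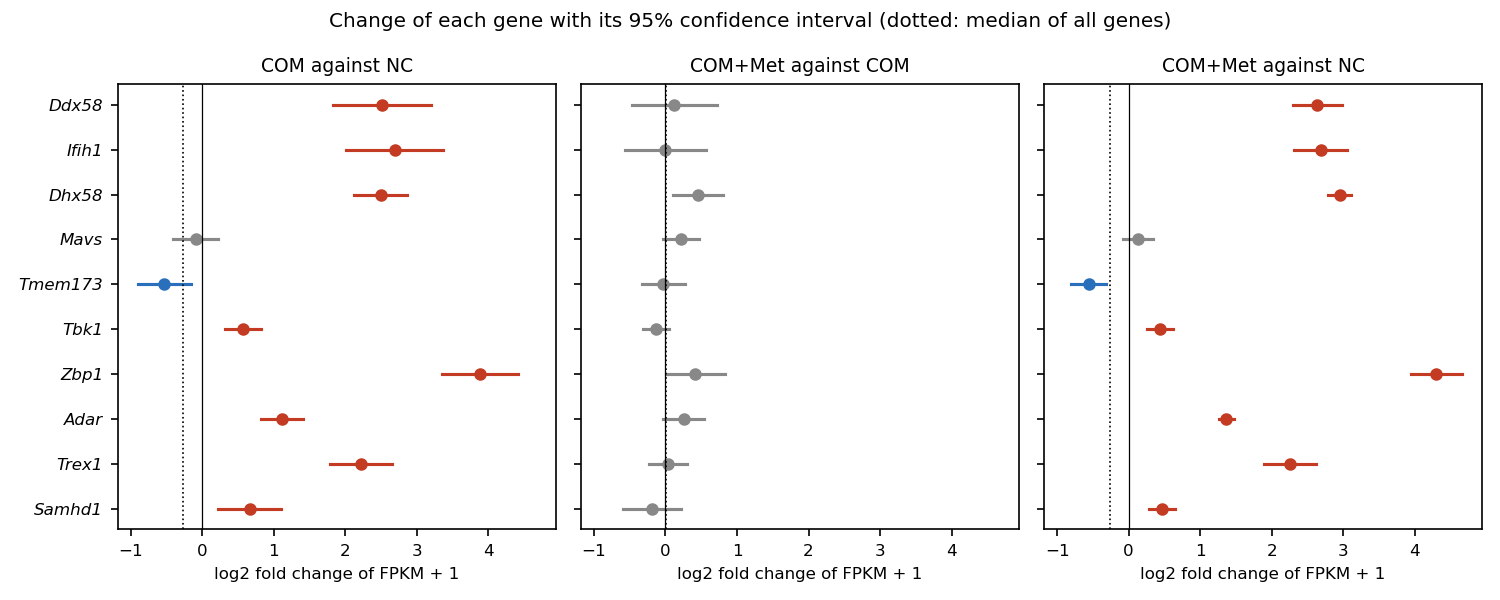
Log2 fold change of FPKM + 1 (horizontal axis) of the 10 genes in 3 comparisons, as points with 95% confidence intervals; red rose, blue fell and grey did not pass an adjusted p of 0.05, and dotted lines mark the median of all genes. Of the 10, Zbp1 had the largest change against NC in both crystal groups (3.88 and 4.30), and none of the 10 passed in COM+Met against COM.

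COM+Met was compared with COM to ask what Met added to BMDMs above crystal-exposed TECs. Of the 10 genes, 0 rose and 0 fell (limma, adjusted p), against 5.77% and 7.58% of all 10364 genes tested. An unadjusted p was below 0.05 for 2 genes by limma, Dhx58 and Zbp1. By the exact permutation test it was so for Dhx58 (p = 0.0195) and Mavs (p = 0.0476), but not for Zbp1 (p = 0.0952). For none of the 10 did COM+Met lie above or below every COM sample, against 5.83% and 5.34% of all genes. The log2 fold change was 0.13 for Ddx58 (95% CI -0.47 to 0.72), -0.0032 for Ifih1 (-0.57 to 0.57) and 0.037 for Trex1 (-0.23 to 0.30). The intervals of Ddx58 and Ifih1 reach changes of about 0.5 in both directions, which these 6 COM samples do not resolve. The nearest to the threshold were Dhx58 (0.45, 95% CI 0.10 to 0.81, adjusted p = 0.0832) and Zbp1 (0.42, 0.0053 to 0.84, adjusted p = 0.169). Dhx58 passed in 7 of 25 alternatives, among them those without COM replicate 4, 5 or 6 (0.55, 0.54 and 0.32).

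The counts turned on which COM libraries were used. COM+Met samples lay above all of COM replicates 1 to 3 in 7 of the 10 genes and below them in 1, and they lay below all of COM replicates 4 to 6 in 4 and above them in 2. The share of all genes set apart in this way was not computed, so these counts are no result about the 10 genes. For Ddx58, the 6 COM+Met samples (89.5 to 95.5 FPKM) fell in the gap between the sets (51.7 to 55.9 and 111 to 180). The same held for Ifih1, with COM+Met at 47.9 to 50.0 FPKM, for Samhd1, with COM+Met at 126 to 151, and for Tmem173, with COM+Met at 9.06 to 10.9 between 6.94–8.57 and 11.7–12.9. Without COM replicates 4 to 6, 7 genes rose and 1 fell: Ddx58 by 0.77 (adjusted p = 2.28e-08, limma), Zbp1 by 0.86, Ifih1 by 0.62, Dhx58 by 0.52, Adar by 0.48, Samhd1 by 0.23 and Trex1 by 0.20 rose, while Tmem173 fell by 0.33. Without COM replicates 1 to 3, Ddx58 fell by 0.52 (adjusted p = 0.0262, limma), Ifih1 and Samhd1 by 0.62 each and Tbk1 by 0.26, while Mavs rose by 0.41 and Tmem173 by 0.27. Ddx58, Ifih1, Samhd1 and Tmem173 thus passed with opposite signs without COM replicates 4 to 6 and without COM replicates 1 to 3, where the 3 libraries left in the latter case held the unlike replicate 6. Over the whole table, genes called at 2-fold went from 230 to 771 without COM replicates 4 to 6 and to 227 without COM replicates 1 to 3. The share of all genes that passed without these libraries is not given here, so the counts that passed are likewise no result about the 10 genes.

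COM+Met was also set against NC, and this comparison shares its NC samples with COM against NC. In it 8 of the 10 genes rose and 1 fell, where 19.3% and 55.9% of all 10786 genes did. At 2-fold 6 rose, against 5.66% of all genes, and 7 lay above NC without overlap, against 14.1%. Zbp1 had a log2 fold change of 4.30 (SE 0.17), Dhx58 of 2.95 (SE 0.072), Ifih1 of 2.69, Ddx58 of 2.64, Trex1 of 2.26, Adar of 1.37, Samhd1 of 0.47 and Tbk1 of 0.44. Tmem173 fell by 0.56 (adjusted p = 0.000625, limma) against a median of -0.26 over all genes. Mavs (0.13, adjusted p = 0.220) passed as higher with size factors (0.43), quantile normalisation (0.38), sample weights (0.29) and without NC replicates 5 and 6 (0.27) or NC replicate 5 (0.20).

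Ratios of the FPKM of a pair of genes within a sample do not depend on how the sample was scaled. Across 8 ratios and 3 comparisons, 24 tests were made by a two-sided exact permutation test, whose smallest p for 6 against 6 is 0.00216, with Benjamini-Hochberg adjustment over the 24. The ratio of Ifih1 to Ddx58, the MDA5 and RIG-I genes, was 0.483 ± 0.0325 in NC (SD, n = 6), 0.581 ± 0.0302 in COM and 0.531 ± 0.0148 in COM+Met. COM exceeded NC without overlap (0.543 to 0.617 against 0.444 to 0.528, adjusted p = 0.00577, exact permutation test), and COM+Met lay lower than COM with overlap (adjusted p = 0.0104, exact permutation test). COM replicates 1 to 3 (0.553 to 0.617) and 4 to 6 (0.543 to 0.609) overlapped in this ratio, unlike in the levels of the genes themselves. The excess of COM+Met over NC passed as well (adjusted p = 0.0189, exact permutation test) but not with 1 FPKM added to both genes (adjusted p = 0.242).

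The ratio of Zbp1 to Adar rose from 0.493 ± 0.139 in NC to 3.60 ± 0.637 in COM (adjusted p = 0.00577, exact permutation test), and was 3.98 ± 0.193 in COM+Met (adjusted p = 0.260 against COM). COM replicates 1 to 3 (2.98 to 3.25) lay below replicates 4 to 6 (3.77 to 4.59). The ratio of Samhd1 to Trex1 fell from 3.58 ± 0.851 to 1.21 ± 0.432 in COM (adjusted p = 0.00577, exact permutation test), where replicate 6 was at 2.07 and the other 5 between 0.944 and 1.17, and was 0.989 ± 0.0883 in COM+Met. The ratio of Mavs to Ddx58, adaptor to sensor, fell from 1.03 ± 0.527 in NC to 0.173 ± 0.0990 in COM and 0.155 ± 0.00599 in COM+Met, both with an adjusted p of 0.00577 (exact permutation test) against NC. It was 0.249 to 0.277 in COM replicates 1 to 3 and 0.0458 to 0.109 in replicates 4 to 6. The ratio of Tmem173 to Cgas fell from 3.21 ± 1.08 to 1.71 ± 0.618 in COM (adjusted p = 0.0346, exact permutation test). This call was lost in 6 of 13 alternatives, those without NC replicate 1, 2, 3 or 4 or without COM replicate 4 or 5, with adjusted p of 0.0606 or 0.0736. In COM+Met the ratio was 1.66 ± 0.103, which did not overlap with NC (log2 difference -0.88, adjusted p = 0.00577, exact permutation test) and passed in 13 of 13 alternatives. The ratio of Dhx58 to Ddx58 was 0.824 to 0.844 in COM replicates 1 to 3, 0.555 and 0.562 in replicates 4 and 5 and 0.160 in replicate 6, and passed in no comparison with all samples. Against NC, COM+Met (adjusted p = 0.0799, exact permutation test) passed without NC replicate 5 (0.0216) or 6 (0.0189).

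**Figure D3:**
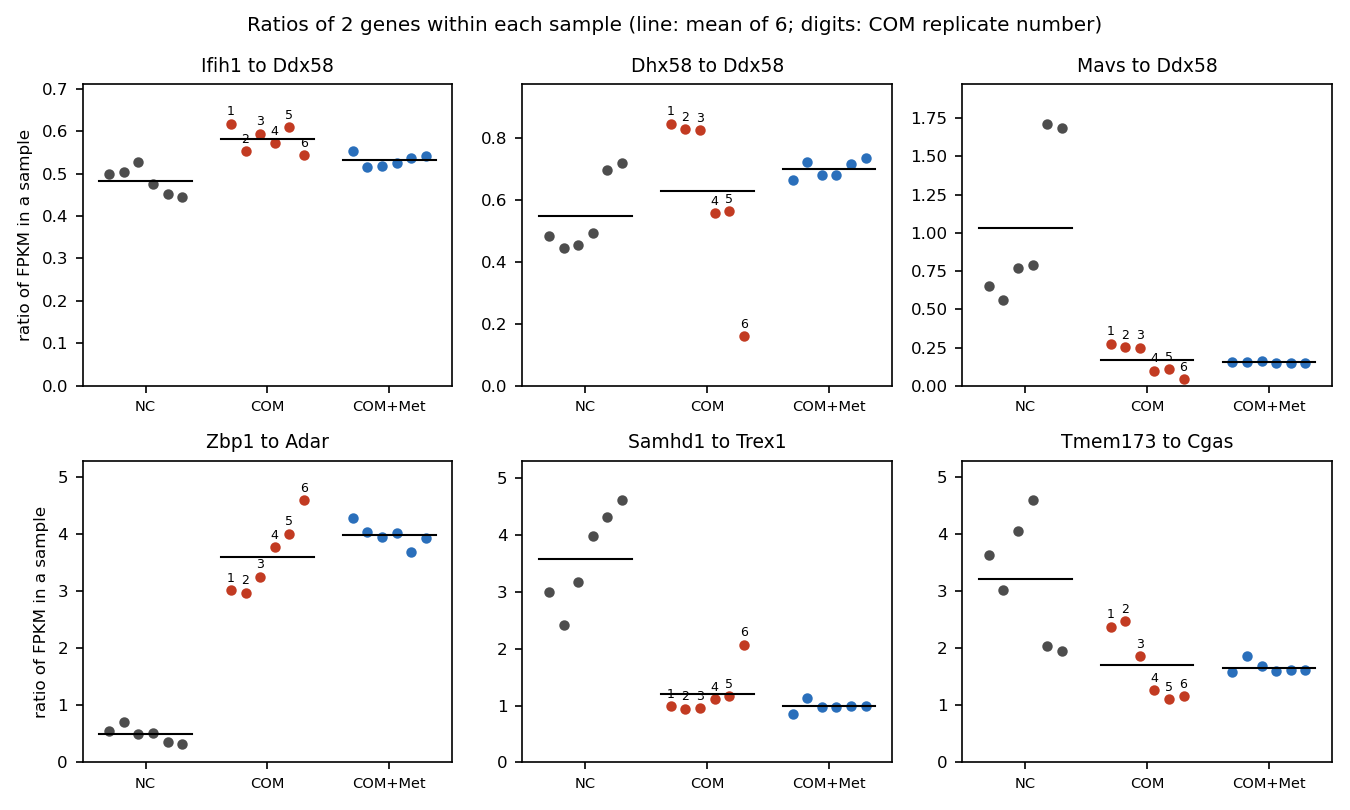
Ratio of FPKM of 2 genes in the same sample (vertical axes, from 0) for 6 of the 8 ratios, by group. Points are samples, lines are means of 6 and digits are COM replicate numbers; Ifih1 to Ddx58 does not separate the COM sets, whereas Dhx58 to Ddx58 does.

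The wider pathway was described by 86 further genes in 8 lists, of which 78 were tested in COM against NC: 30 rose and 20 fell, 22 and 7 of them by at least 2-fold, with a median log2 fold change of 0.10. At 2-fold, 5.99% of all genes tested rose and 11.7% fell. Among 14 other sensors, 4 rose and 5 fell, where 12.7% of all genes rose and 40.6% fell. Ddx60, a helicase that assists RIG-I, went from 2.53 ± 0.645 FPKM to 41.2 ± 21.6 (log2 fold change 3.43, adjusted p = 1.87e-06, limma), and Eif2ak2, the kinase PKR, from 12.9 ± 2.03 to 37.0 ± 16.0 (1.36). Nod2 (0.88) and Zc3hav1 (0.47), the antiviral protein ZAP, also rose. The sensors that fell were Lrrfip1 (-0.80), Ddx3x (-0.50), Ddx41 (-0.36), Dhx15 (-0.35) and Ddx1 (-0.33), the last 3 close to the median of all genes, -0.27. The gene of cGAS, listed as Mb21d1 in older annotation, was at 4.88 ± 0.900 and 6.15 ± 0.793 FPKM (log2 fold change 0.29, adjusted p = 0.0526, limma), and Aim2 at 21.2 ± 0.994 and 24.4 ± 8.57 (0.14, adjusted p = 0.473).

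Among 9 tested ubiquitin ligases and cofactors, 3 rose and 3 fell. For this list and those that follow in COM against NC, 12.7% of all genes tested rose and 40.6% fell. Trim25, a RIG-I ligase, was at a log2 fold change of 1.28 and G3bp1, a stress granule protein, at -1.01. Rnf135, another RIG-I ligase, rose by 0.72 and Trim56 by 0.45. Zdhhc1 (-0.49) and Tomm70a (-0.28) fell, the latter close to the median of all genes, -0.27. Of 13 genes of kinases, TRAFs and IRFs, 6 rose and 1 fell. Irf7, an interferon-inducible regulator of interferon genes, went from 8.52 ± 4.22 to 594 ± 193 FPKM (log2 fold change 6.05, adjusted p = 3.62e-08, limma), and Azi2 and Tank, scaffolds of TBK1, had values of 1.48 and 1.22. The gene that fell was Tbkbp1 (-1.05), another TBK1 adaptor, and Irf3 did not pass (-0.32, adjusted p = 0.231). Of 14 tested inhibitors, 5 rose and 1 fell. Usp18, which removes ISG15 and restrains interferon signalling, rose by a log2 fold change of 4.38, Trim30a by 2.86, Nlrc5 by 2.16, Tnfaip3 by 1.51 and Atg12 by 0.38, and Nlrc3, an inhibitor of STING, fell by 1.37.

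Nucleases and genes handling cyclic dinucleotides had 3 rises and 8 falls among 15 tested, where 12.7% of all genes rose and 40.6% fell. Enpp1, which degrades the cGAS product, fell by 1.73 on the log2 scale (3.52 ± 0.915 to 0.350 ± 0.190 FPKM), and the RNase H2 subunit genes Rnaseh2a, Rnaseh2b and Rnaseh2c fell by 0.89, 1.00 and 1.10. Rnaseh2a overlapped between NC (8.44 to 15.2 FPKM) and COM (2.75 to 10.5). In COM, the lowest value of Rnaseh2c was 1.21 FPKM, far below its median of 12.2. The genes that rose were Rnaset2a (1.79), Rnaset2b (1.61) and Lrrc8c (1.53), a channel subunit; Rnaset2a and Rnaset2b are near-identical copies whose reads may be split uncertainly. Of 4 partners of Zbp1 in cell death, Mlkl rose (11.3 ± 1.10 to 56.2 ± 29.2 FPKM, log2 fold change 2.06), Ripk3 fell (27.8 ± 3.97 to 8.29 ± 2.86, -1.69), Casp6 fell (-0.70) and Casp8 did not pass (0.21). Of the 3 relatives of Adar, Adarb1 was the only one tested and did not pass (-0.34).

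The 8 tested interferon-induced targets rose, led by Ccl5 (9.12), Ifit3 (6.06) and Isg15 (5.44), with a list median of 5.30. Ifnb1, the gene of interferon-β, was below the filter: NC was at 0 to 0.194 FPKM, COM at 0 to 0.835 and COM+Met at 0.195 to 0.653. COM replicates 4 to 6 (0.760 to 0.835) were above replicates 1 to 3 (0 to 0.184). Ifna4 and Ifnl3 were listed at 0 in COM and NC.

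In COM+Met against COM, 4 of the 78 tested pathway genes rose and 4 fell, 0 by 2-fold, with a median of 0.064, where 5.77% of all genes rose and 7.58% fell, so these counts are no result about the pathway. Those that rose were Pld3 (0.65), an exonuclease of endolysosomes, Slc19a1 (0.52), an importer of cyclic dinucleotides, Fadd (0.41) and Atg12 (0.29). Those that fell were Pld4 (-0.58), Lrrfip1 (-0.53), Dhx9 (-0.53) and Casp6 (-0.45). In COM+Met against NC, 35 of 79 tested rose and 31 fell, where 19.3% of all genes rose and 55.9% fell. At 2-fold 22 rose, against 5.66% of all genes, and 8 fell, where 1467 of all 10786 genes tested fell. Log2 fold changes were 6.07 for Irf7, 4.99 for Usp18, 3.37 for Ddx60, 2.26 for Mlkl, -1.62 for Ripk3, -1.81 for Enpp1 and -1.33 for Lrrfip1.

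**Figure D4:**
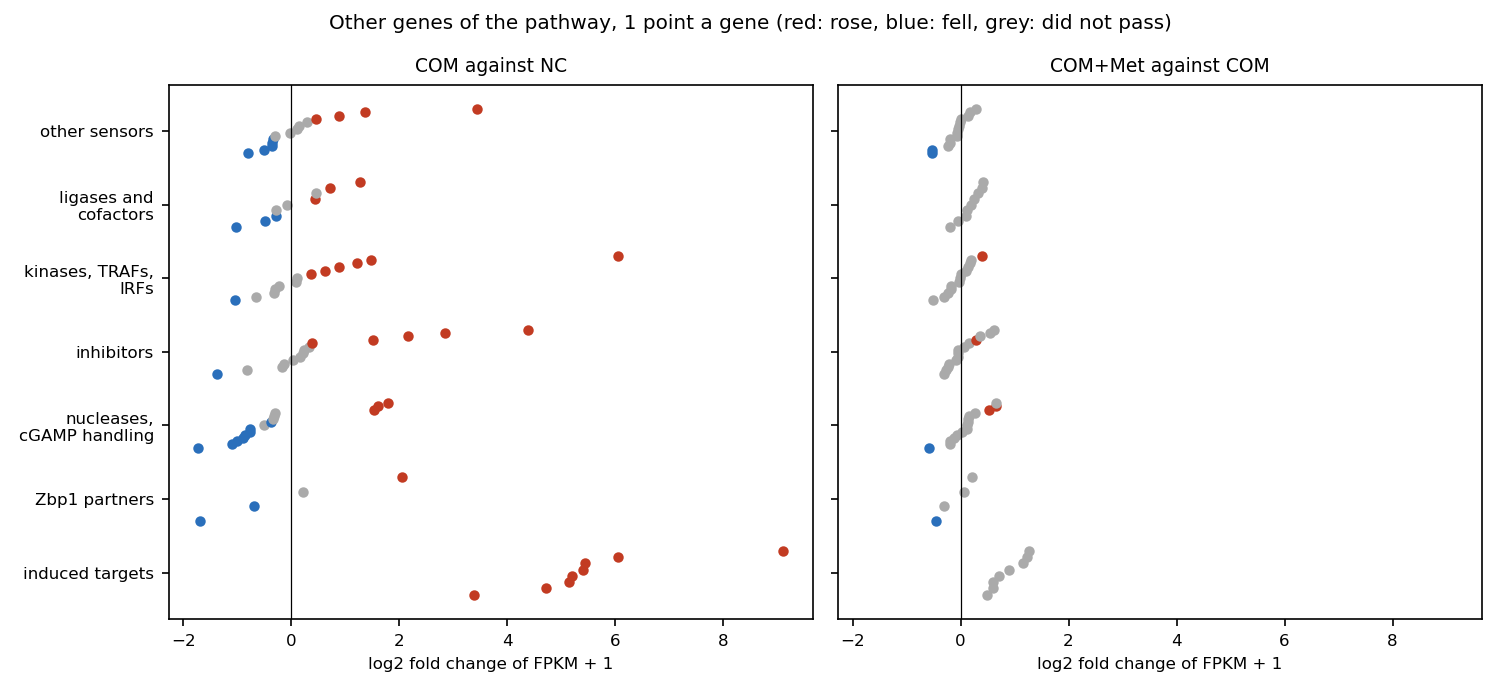
Log2 fold change of FPKM + 1 (horizontal axis) of the tested genes of 7 of the 8 further lists (rows), 1 point a gene, in COM against NC (left) and COM+Met against COM (right); red rose, blue fell and grey did not pass. The 8 induced targets rose in COM against NC, where 12.7% of all genes rose and 40.6% fell.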

How the data were processed

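RNA of 18 BMDM samples was sequenced from TruSeq libraries. The authors deposited FPKM values with a column for each sample, and all 18 columns were used. The submitters' processing notes name Bowtie 0.12.2, mm8 and mm9 without their roles. Quantifier and annotation were not given in the sources used here. Whole reads could not be recovered: in any pair of samples at most 0.368% of low genes shared the most common ratio, so no counting interval is given.

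For each pair of groups, log2(FPKM + 1) was fitted with limma 3.58.1 (trend, two-sided; R 4.3.3) for genes averaging 1 FPKM or more in the 12 samples, and p-values were adjusted by Benjamini-Hochberg across these genes. A fold change is on the FPKM + 1 scale and understates that of low genes. A gene passed at an adjusted p below 0.05. Single genes and ratios were also compared by exact permutation tests over all splits. The test was checked against scipy 1.17.1 on simulated numbers, and the fit was tested on simulated data. Groups came from the sample titles. The 10 genes and the lists were chosen with earlier results of these data known, and the COM and NC library sets likewise. Named genes were the 10 members, per list the 3 largest changes at 2-fold, the genes needed to account for a count of 5 or fewer, and the 3 genes most correlated with each member; Aim2, Irf3, the RNase H2 genes and the values repeated in COM+Met against NC were chosen after their values were seen. Positions came from GENCODE M21 (GRCm38) and start-site sequences from RefSeq (GRCm38.p6). Alternatives were other pseudocounts, filters, scalings, sample weights, a replicate block, all 18 samples in one fit, and libraries left out.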

Additional observations from a re-analysis of the deposited data

Results flagged for a closer look

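Zbp1 in COM+Met replicate 1 was at 182 FPKM, the highest of its group, and on the log2(FPKM + 1) scale its gap to the next sample was 0.631 of the group's range, above the critical value of 0.625 for 6 samples. It was the 1 value set apart in this way among 30 groups of 6 tested, where chance gives about 1 in 20.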

How the results depend on the processing

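Of the log2 fold changes of the 10 genes, 247 of 260 kept their direction and side of the threshold in COM against NC, 203 of 250 in COM+Met against COM and 235 of 240 in COM+Met against NC. The lowest values over the 26 alternatives of COM against NC were 2.05 for Dhx58, 0.33 for Tbk1, 3.35 for Zbp1, 0.89 for Adar and 1.85 for Trex1. Genes called over the whole table numbered 1926, 230 and 2078, and 980, 90 and 1117 with a pseudocount of 5, while COM+Met against COM gave 370 with a pseudocount of 0.1, 719 with sample weights and 771 without COM replicates 4 to 6. In COM against NC, the count of the 10 genes that fell went from 1 to 0 with size factors, quantile normalisation and without COM replicates 4 to 6, and was 0 to 1 with single samples left out. Mavs turned to 0.21 with size factors, 0.16 with quantile normalisation, 0.23 with sample weights, 0.10 without COM replicates 4 to 6 and 0.052 without NC replicates 5 and 6, and ranged from -0.13 to 0.014 with single samples left out. In COM+Met against COM, the count that rose went from 0 to 1 with size factors and with all 18 samples in the same fit, 2 with quantile normalisation and without COM replicates 1 to 3, and 7 with sample weights and without COM replicates 4 to 6, and was 0 to 1 with single samples left out. The count that fell went from 0 to 1, 1 and 4 with sample weights, without COM replicates 4 to 6 and without COM replicates 1 to 3. The share of all genes that passed under each alternative is not given here, so these counts are no result about the 10 genes. Signs turned for Trex1 with TPM (-0.0090), for Ifih1 with size factors (0.015), quantile normalisation (0.029), sample weights (0.57) and without COM replicates 4 to 6 (0.62), for Samhd1 in the last pair (0.22 and 0.23), for Tbk1 without COM replicates 4 to 6 (0.0013), and without COM replicates 1 to 3 for Ddx58 (-0.52), Tmem173 (0.27), Zbp1 (-0.015) and Trex1 (-0.13). With single samples left out, Ddx58 ranged from -0.015 to 0.34, Ifih1 from -0.13 to 0.19, Tmem173 from -0.12 to 0.039 and Trex1 from -0.010 to 0.12. The log2 ratio of Dhx58 to Ddx58 in COM against NC was -0.021 with 1 FPKM added to both genes and ranged from -0.078 to 0.40 with single samples left out, and that of Dhx58 to Ifih1 from -0.35 to 0.12. In COM+Met against COM the ranges were -0.023 to 0.46 for Dhx58 to Ddx58, -0.22 to 0.30 for Mavs to Ddx58, -0.073 to 0.16 for Tmem173 to Cgas and -0.11 to 0.15 for Ikbke to Tbk1. The cause of these changes was not tested. Replicate numbers recur in all groups, but samples of the same number did not deviate together (correlations at most 0.057). With a replicate block, 1920, 202 and 2080 genes were called, and the members' counts (8 higher and 1 lower, 0 and 0, 8 higher and 1 lower) did not change. FPKM gives no read depth, so low genes such as Ifnb1 carry an unknown counting error, and 6 COM libraries in sets leave wide intervals for Ddx58 and Ifih1.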

Other observations

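The genes whose log2(FPKM + 1) followed each member most closely over the 18 samples were named among 10751 genes, as a description: the samples share the difference between NC and the crystal groups and the COM sets, which raise all such correlations. Ddx58 and Ifih1 were each other's closest gene (Pearson's r 0.998), followed by Ifi205 and Ifi209 for Ddx58 and by Xaf1 and Ifi205 for Ifih1 (0.996 to 0.997), and the Ifi200 genes are close copies whose reads may be split uncertainly. Dhx58 was closest to Acsl5, a fatty acid ligase (0.993), Zbp1 to Znfx1, an RNA-binding helicase (0.996), Adar to Mov10, another RNA helicase (0.996), and Trex1 to Oas1g, an oligoadenylate synthetase (0.997). Next came Ccl5 and Bst2 for Dhx58 (0.991 and 0.990) and Ccl5 and Oas3 for Zbp1 (0.995 and 0.994). For Adar they were Ifi35 and H2-K1 (0.992 each), and for Trex1 Isg15 and Saa3 (0.997 and 0.995). Mavs was closest to Rpn2 (0.958), Tmem173 to Inpp5k (0.963) and Tbk1 to Srgn (0.976). After these came Mon1a and Galns for Mavs (0.955 and 0.917) and Sft2d2 and Itga1 for Tmem173 (0.955 and 0.953). Those of Tbk1 were new gene models (0.973 each). The gene closest to Samhd1 was a new gene model without an Ensembl identifier (0.962), followed by Igf2bp2 and Mxd1 (0.955 each). Among the members themselves, Dhx58 correlated with Adar (0.979) and Zbp1 (0.982) more closely than with Ddx58 (0.919), and the lowest values against Ddx58 were those of Mavs (-0.21) and Tmem173 (-0.74).

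NC replicates 5 and 6 lay below NC replicates 1 to 4 in 7 of the 10 members and above them in Mavs, and overlapped in Dhx58 and Adar. The share of all genes set apart in this way was not computed, so these counts are no result about the members. For Trex1 the values were 19.4 and 20.3 FPKM against 31.9 to 41.3, and for Irf7 3.29 and 3.72 against 9.18 to 13.7. In COM, the kinase gene Ikbke, a relative of Tbk1, was at 66.7 to 75.7 FPKM in replicates 1 to 5 and at 36.5 in replicate 6, and Irf3 at 13.2 to 15.0 and 4.73, while Mlkl was highest in replicate 6 (98.4 FPKM, against 29.9 to 31.7 in replicates 1 to 3). Ripk3 was lowest in that same library (3.84 FPKM, against 6.72 to 11.3 in the other 5).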
